A study of Anopheles gambiae with 9 samples.

Results

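The transcripts described here were abundant in the ears of wild-type female Anopheles gambiae and low in every ear library that lacked the female form of the sex determination protein Doublesex. They were chosen by their measured levels. A transcript was taken when its lowest level in the 3 dsxF+/+ XX libraries was at least 2 CPM (the counts given to a transcript for every 1000000 counts of its library) and at least 3 times the sum of 0.5 CPM and its highest level in any dsxF-/- XX or dsxF+/+ XY library. By this rule 73 of 16066 transcripts were chosen, from 71 of 13845 genes. Their low level in dsxF-/- XX and in dsxF+/+ XY ears, relative to dsxF+/+ XX ears, is therefore how they were picked and is given below without a test.

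In insects the primary transcript of doublesex is spliced in a different way in each sex, and the resulting proteins, DsxF in females and DsxM in males, are transcription factors that share a DNA-binding domain and differ in their ends. They direct much of the somatic difference between the sexes. The mosquito ear is the Johnston's organ, a fan of stretch-sensitive neurons packed into the pedicel, the swollen second segment of the antenna. It is larger and carries more neurons in males, which find flying females by the sound of their wings. The transcripts described here are RNA that female ears carry and the other ears largely do not.

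Pedicels were dissected from 3 groups and RNA was sequenced from 3 pooled collections of each. The first group was dsxF-/- XX, chromosomally female mosquitoes homozygous for a mutation of the female-specific doublesex exon. The others were dsxF+/+ XY males and dsxF+/+ XX females of the G3 strain, which carry an intact doublesex. Adults were 2 to 3 days old when placed in vials, spent 3 days in a cycle of 12 hours of light and 12 hours of dark, and were frozen as the light began to fall. The dsxF+/+ pupae had been kept in single-sex cages and the dsxF-/- pupae had not, so the effects of the mutation, of caging and of any difference in strain background cannot be told apart. In whole pedicels, fewer cells of a type and less RNA per cell also cannot be told apart.

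The 9 libraries held between 14177255 and 18379886 estimated counts. One library stood apart in composition: the 10 most abundant transcripts took 23.6% of dsxF+/+ XX replicate 3 and between 8.95% and 14.2% of the other 8. The tissue label was checked on 4 transcripts that the study's text names in its account of the ear. The mechanosensory channel subunit nanchung (AGAP012241-RA) averaged 188 ± 27.4 CPM in dsxF-/- XX, 220 ± 22.4 CPM in dsxF+/+ XY and 64.3 ± 11.7 CPM in dsxF+/+ XX ears (SD, n = 3 each). The ciliary transport gene nompB (AGAP006324-RA), the axonemal tektin-3 (AGAP000219-RA) and a piezo channel (AGAP009276-RB) were also present in all 9 libraries, each with its lowest mean in dsxF+/+ XX. The study named all 4 among transcripts it called higher in dsxF+/+ XY and in dsxF-/- XX than in dsxF+/+ XX from these same data. Their lower mean in dsxF+/+ XX, and their presence in the other groups, therefore came with that choice.

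No source used here pairs the 73 chosen transcripts with gene names, so they are given by identifier and no function is stated for them, with 1 partial exception among the isoforms below. CPM are not scaled for transcript length, so a difference in CPM between transcripts is not a difference in their number of molecules. The order of transcripts by CPM, and the share of a gene's counts, serve only to arrange the description.

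In dsxF+/+ XX ears the chosen transcripts ranged widely in level. The lowest of the 3 dsxF+/+ XX values lay between 3.32 and 916 CPM, with a median of 76.4 CPM. It reached 100 CPM or more for 28 transcripts, lay from 10 to under 100 CPM for 41 and was under 10 CPM for 4. The dsxF+/+ XX libraries were close to each other: the highest was a median of 1.56 times the lowest, and for 60 of 73 transcripts the ratio was under 2. It exceeded 3 for AGAP013481-RA, AGAP009144.R775 and AGAP001200-RA, named here after their values were seen. AGAP013481-RA had 5.02, 3.35 and 4.27 CPM in dsxF-/- XX, 2.78, 1.68 and 2.76 CPM in dsxF+/+ XY and 19.9, 32.1 and 145 CPM in dsxF+/+ XX ears, so its mean in dsxF+/+ XX was set largely by replicate 3. Together the 73 transcripts took 0.15%, 0.197% and 0.162% of the counts in dsxF-/- XX libraries, 0.0752%, 0.0273% and 0.0586% in dsxF+/+ XY libraries and 1.37%, 1.04% and 1.34% in dsxF+/+ XX libraries.

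**Figure D1:**
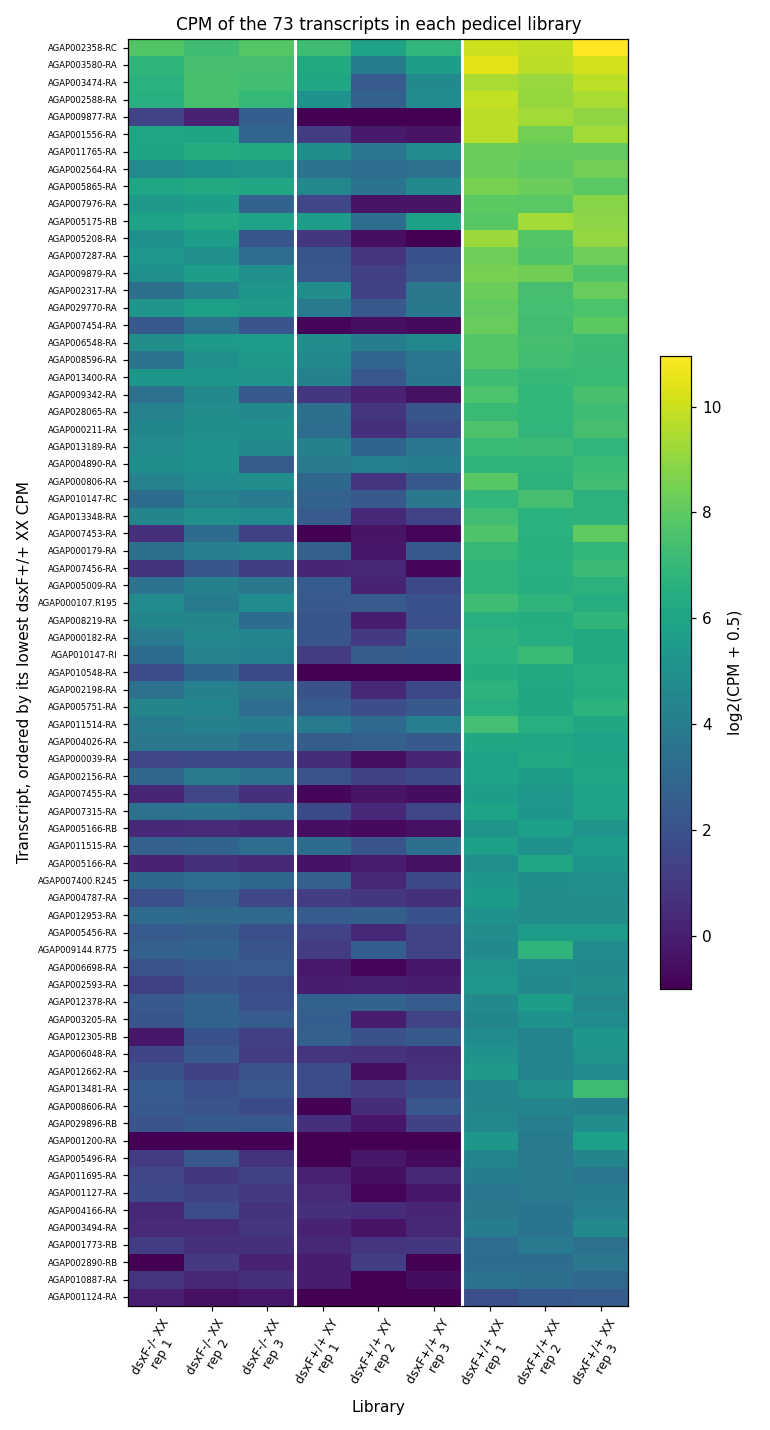
Heat map of log2(CPM + 0.5) for the 73 chosen transcripts (rows, ordered by lowest dsxF+/+ XX level) in the 9 pedicel libraries (columns, 3 per group). The dsxF+/+ XX columns are the brightest in every row, which the rule fixed, and the dsxF+/+ XY columns, replicate 2 above all, are darker than the dsxF-/- XX columns in most rows.

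The chosen transcripts with the highest CPM in dsxF+/+ XX ears kept a visible level without DsxF. AGAP002358-RC had 208, 153 and 223 CPM in dsxF-/- XX, 144, 58.6 and 117 CPM in dsxF+/+ XY and 1070.1, 916 and 1997 CPM in dsxF+/+ XX ears. AGAP003580-RA had 114, 175 and 170.2 CPM in dsxF-/- XX, 76.1, 15.8 and 49.3 CPM in dsxF+/+ XY and 1406, 847 and 1139 CPM in dsxF+/+ XX ears. For both, every dsxF-/- XX library lay above every dsxF+/+ XY library. AGAP003474-RA had 101, 179 and 156 CPM in dsxF-/- XX, 65.1, 4.96 and 24.8 CPM in dsxF+/+ XY and 686, 555 and 886 CPM in dsxF+/+ XX ears. AGAP002588-RA had 92.3, 176 and 124 CPM in dsxF-/- XX, 33.7, 5.91 and 28.1 CPM in dsxF+/+ XY and 946, 532 and 695 CPM in dsxF+/+ XX ears. The same order held in both of these, and dsxF+/+ XY replicate 2 was the lowest library of each of the 4.

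Other transcripts had no count in male ears. AGAP009877-RA had 2.26, 0.629 and 5.45 CPM in dsxF-/- XX and no count in any dsxF+/+ XY library, against 847, 641 and 497 CPM in dsxF+/+ XX ears. Set against the limit that a count of 0 allows, 3 counts over the group, its level was at least 43.7-fold higher in dsxF-/- XX than in dsxF+/+ XY and at least 10796-fold higher in dsxF+/+ XX than in dsxF+/+ XY ears. It was also the transcript with the least left in dsxF-/- XX ears, 0.42% of the dsxF+/+ XX mean, apart from AGAP001200-RA. AGAP010548-RA had 3.03, 6.81 and 2.72 CPM in dsxF-/- XX and no count in dsxF+/+ XY ears, against 85.4, 76.4 and 86.5 CPM in dsxF+/+ XX ears, the first being at least 70.2-fold and the last at least 1341-fold above the dsxF+/+ XY limit. AGAP001124-RA, named after its values were seen, was at 0 in dsxF+/+ XY ears too, with 0.494, 0.229 and 0.324 CPM in dsxF-/- XX and 3.32, 4.45 and 5.15 CPM in dsxF+/+ XX ears. The limits cover counting error only, since amplified reads are not independent molecules.

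A further few were low in males by more than 2 orders of magnitude and yet clearly present in 2 of the 3 mutant collections. AGAP001556-RA had 66.1, 62.3 and 6.88 CPM in dsxF-/- XX, 1.61, 0.408 and 0.272 CPM in dsxF+/+ XY and 838, 338 and 623 CPM in dsxF+/+ XX ears. AGAP007976-RA had 42.0, 51.5 and 6.23 CPM in dsxF-/- XX, 2.38, 0.272 and 0.272 CPM in dsxF+/+ XY and 244, 239.5 and 456 CPM in dsxF+/+ XX ears. AGAP005208-RA had 32.1, 51.2 and 4.15 CPM in dsxF-/- XX, 1.35, 0.204 and 0 CPM in dsxF+/+ XY and 579.8, 215 and 514 CPM in dsxF+/+ XX ears. In all of these dsxF-/- XX replicate 3 was far below replicates 1 and 2 and still above every dsxF+/+ XY library.

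**Figure D2:**
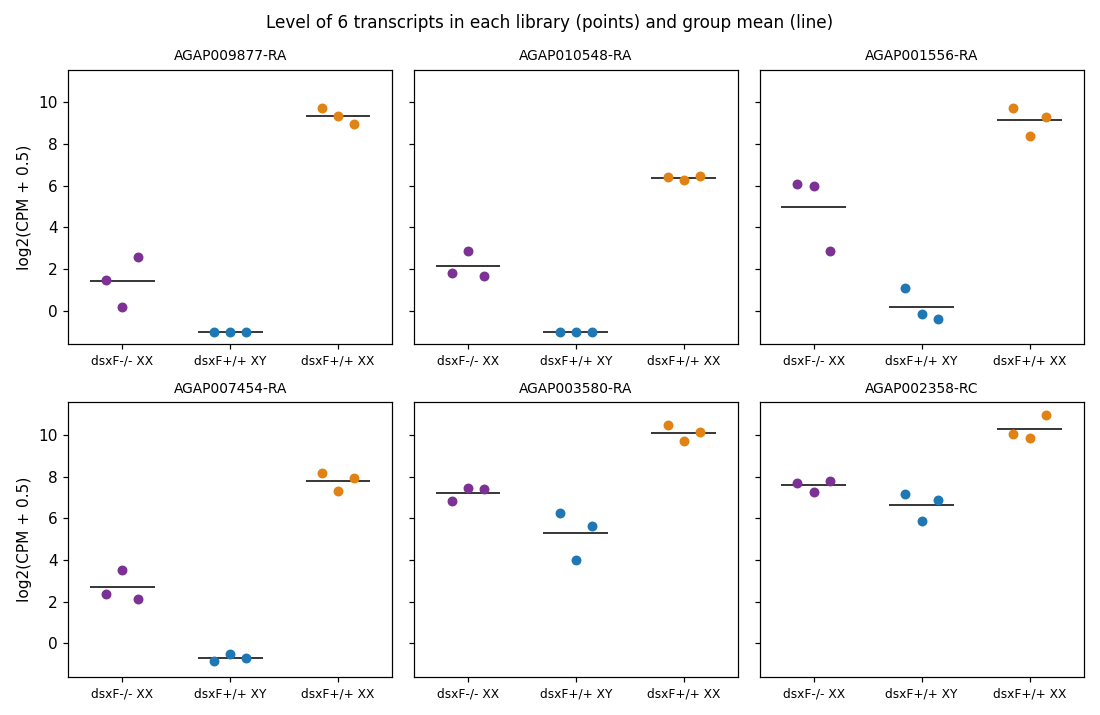
log2(CPM + 0.5) of 6 of the chosen transcripts in dsxF-/- XX, dsxF+/+ XY and dsxF+/+ XX ears, with a point for each of the 3 libraries and a line at the mean of the log2 values. AGAP009877-RA and AGAP010548-RA sit at the floor in all 3 dsxF+/+ XY libraries and above it in all 3 dsxF-/- XX libraries, and AGAP001556-RA shows the low dsxF-/- XX replicate 3.

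Over all 73 transcripts the level left in dsxF-/- XX ears had a median of 13.9% of the dsxF+/+ XX mean, with quartiles of 8.86% and 18.5% and a highest value of 27.9%. In dsxF+/+ XY ears the median was 3.77%, with quartiles of 1.15% and 7.37% and a highest value of 17.4%. Under 5% of the dsxF+/+ XX mean was left for 9 transcripts in dsxF-/- XX and for 48 in dsxF+/+ XY ears, and under 1% for 2 transcripts in dsxF-/- XX and 17 in dsxF+/+ XY ears. At the other end, 15% or more was left for 28 transcripts in dsxF-/- XX and for 4 in dsxF+/+ XY ears. By library, the median was 12.3%, 15.8% and 12.2% in dsxF-/- XX and 4.73%, 1.57% and 3.88% in dsxF+/+ XY ears, so the library medians of these groups did not overlap. In log2 terms the median change was -2.98 in dsxF-/- XX against dsxF+/+ XX, and -4.72 in dsxF+/+ XY against dsxF+/+ XX. The test across all transcripts called 70 of the 73 lower in the first of these, where 6.87% of all 12379 tested transcripts were called lower, and 72 in the second, where 18.1% were. Both contrasts were used by the rule, so nothing is read from these counts.

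The comparison of dsxF-/- XX with dsxF+/+ XY ears was not part of the rule. It asks whether the female transcripts that are low without DsxF are as low as in a male. The rule put 1 ceiling over both groups and did not fix their order, though it capped the values that enter this comparison. The highest of the 6 capped libraries was a dsxF-/- XX library for 69 of 73 transcripts, replicate 2 for 43 of them, and a dsxF+/+ XY library for 4.

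By edgeR's quasi-likelihood test with Benjamini-Hochberg adjustment over all tested transcripts, 39 of the 73 were higher in dsxF-/- XX than in dsxF+/+ XY ears, where 6.09% of all tested transcripts were called higher. None was called lower (0 by edgeR and 0 by DESeq2, with 1 below an unadjusted p of 0.05 by edgeR), where 1.3% of all tested were. The median log2 change of the 73 was 1.79, against -0.02 over all tested transcripts, and 68 of them (93.2%, against 48% of all tested) had a change above 0. All 3 dsxF-/- XX libraries lay above all 3 dsxF+/+ XY libraries for 57 transcripts and below them for 0, where 20.1% and 7.53% of all tested transcripts were so ordered. The same shares were not computed for other transcripts higher in dsxF+/+ XX than in dsxF+/+ XY ears. An excess over all tested transcripts is thus not shown to be particular to the 73. Each of the 39 calls was over 2-fold and 26 were over 4-fold. The count rested partly on single libraries: leaving out dsxF-/- XX replicate 2 gave 21, and leaving out dsxF+/+ XY replicate 3 gave 24.

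**Figure D3:**
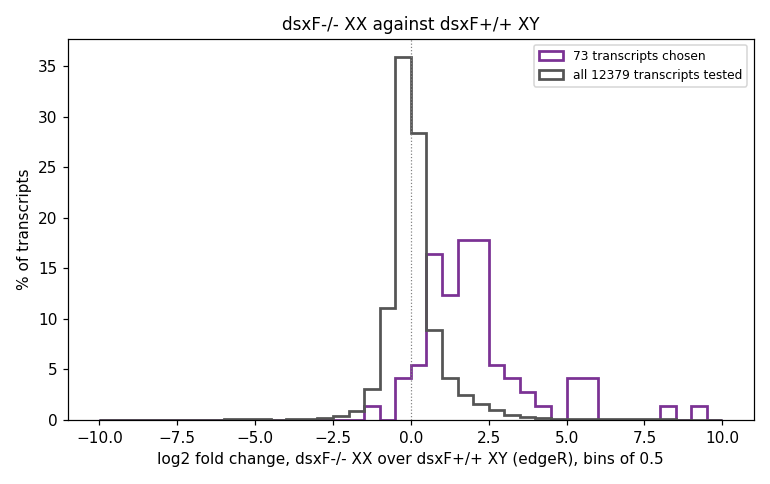
Share of transcripts (vertical axis, %) by log2 fold change of dsxF-/- XX over dsxF+/+ XY ears (horizontal axis, bins of 0.5), for the 73 chosen transcripts and for all 12379 tested. The chosen transcripts centre on 1.79 and all tested on -0.02.

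Among the calls with the smallest p, AGAP006698-RA had 3.81, 4.52 and 4.93 CPM in dsxF-/- XX ears, against 0.386, 0.068 and 0.326 CPM in dsxF+/+ XY ears. Its log2 change was 3.91 ± 0.40 (SE, adjusted p = 8.1e-04). The dsxF-/- XX libraries were close to each other and far above those of dsxF+/+ XY, and dsxF+/+ XX ears had 35.7, 27.8 and 25.1 CPM. AGAP009879-RA had 31.5, 51.0 and 31.8 CPM in dsxF-/- XX and 4.25, 1.90 and 4.24 CPM in dsxF+/+ XY ears, with 369.9, 335 and 202 CPM in dsxF+/+ XX. Its change was 3.34 ± 0.35 (adjusted p = 8.4e-04). AGAP007454-RA had 4.73, 10.9 and 3.96 CPM in dsxF-/- XX and 0.0644, 0.204 and 0.109 CPM in dsxF+/+ XY ears, with 286, 159 and 247 CPM in dsxF+/+ XX. Its change was 5.52 ± 0.62 (adjusted p = 0.00125), although dsxF-/- XX ears held only 2.83% of the dsxF+/+ XX mean.

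Changes smaller than these were also among the calls with the smallest p. AGAP002564-RA had 26.5, 35.4 and 36.4 CPM in dsxF-/- XX and 11.4, 9.06 and 10.8 CPM in dsxF+/+ XY ears, a log2 change of 1.53 ± 0.21 (adjusted p = 0.00332). AGAP005865-RA had 66.1, 75.5 and 69.7 CPM in dsxF-/- XX and 22.4, 11.8 and 26.0 CPM in dsxF+/+ XY ears, a change of 1.70 ± 0.26 (adjusted p = 0.00557). AGAP000107.R195 had 27.0, 15.3 and 28.0 CPM in dsxF-/- XX and 4.57, 4.96 and 3.59 CPM in dsxF+/+ XY ears, a change of 2.29 ± 0.30 (adjusted p = 0.00263). The groups did not overlap in any of them. The same was true of AGAP002593-RA, with 2.05, 3.95 and 2.98 CPM in dsxF-/- XX and 0.450, 0.544 and 0.435 CPM in dsxF+/+ XY ears, a change of 2.51 ± 0.34 (adjusted p = 0.00325).

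The largest fitted change among transcripts with counts in both groups belonged to AGAP001556-RA, 5.79 ± 0.99 (adjusted p = 0.00847). AGAP007976-RA changed by 5.00 ± 1.00 (adjusted p = 0.0162) and AGAP005208-RA by 5.73 ± 1.18 (adjusted p = 0.0190). The calls of AGAP007976-RA and AGAP005208-RA were lost without dsxF-/- XX replicate 2, dsxF+/+ XY replicate 2 or dsxF+/+ XY replicate 3. Of the 4 transcripts with the highest CPM, AGAP002588-RA was called, at 2.43 ± 0.54 (adjusted p = 0.0256), and its call was lost without dsxF-/- XX replicate 2 or 3 or dsxF+/+ XY replicate 3. AGAP003580-RA at 1.60 ± 0.46 (adjusted p = 0.0749) and AGAP003474-RA at 2.10 ± 0.69 (adjusted p = 0.121) missed the threshold and passed it without dsxF+/+ XY replicate 1. AGAP002358-RC, at 0.76 ± 0.40 (adjusted p = 0.366), also missed it.

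Not all of the 15 transcripts with the highest dsxF+/+ XX CPM were called. AGAP002317-RA had 10.2, 19.3 and 38.8 CPM in dsxF-/- XX, 29.2, 1.96 and 12.7 CPM in dsxF+/+ XY and 312, 172 and 287 CPM in dsxF+/+ XX ears. Its libraries overlapped between dsxF-/- XX and dsxF+/+ XY, its log2 change was 0.52 ± 0.75 (adjusted p = 0.774), and without dsxF-/- XX replicate 3 it was -0.07. AGAP005175-RB had 58.6, 73.5 and 61.0 CPM in dsxF-/- XX, 47.0, 9.39 and 55.0 CPM in dsxF+/+ XY and 232, 638 and 466 CPM in dsxF+/+ XX ears, a change of 0.70 ± 0.55 (adjusted p = 0.569) that was not called. AGAP011765-RA was called, at 1.59 ± 0.29 (adjusted p = 0.0107), with 63.1, 84.2 and 79.6 CPM in dsxF-/- XX, 31.0, 12.3 and 26.5 CPM in dsxF+/+ XY and 314, 279 and 276 CPM in dsxF+/+ XX ears. AGAP007287-RA was called too, at 3.10 ± 0.59 (adjusted p = 0.0134).

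For 29 transcripts the change was above 0 and not called, for 4 it was below 0, and for AGAP001200-RA, at 0 counts in both groups, it was 0. The 4 below 0 are named after their values were seen. AGAP012305-RB had 0.351, 3.48 and 1.93 CPM in dsxF-/- XX and 5.85, 3.46 and 4.73 CPM in dsxF+/+ XY ears, a change of -1.39 ± 0.60 (adjusted p = 0.251). AGAP011515-RA had 5.83, 6.41 and 9.60 CPM in dsxF-/- XX and 8.89, 3.78 and 10.2 CPM in dsxF+/+ XY ears, a change of -0.18 ± 0.34 (adjusted p = 0.841) that was 0.09 without dsxF+/+ XY replicate 3. The libraries overlapped in both, as they did for AGAP012378-RA (-0.41 ± 0.34, adjusted p = 0.594) and AGAP002890-RB (-0.27 ± 1.24, adjusted p = 0.946).

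**Figure D4:**
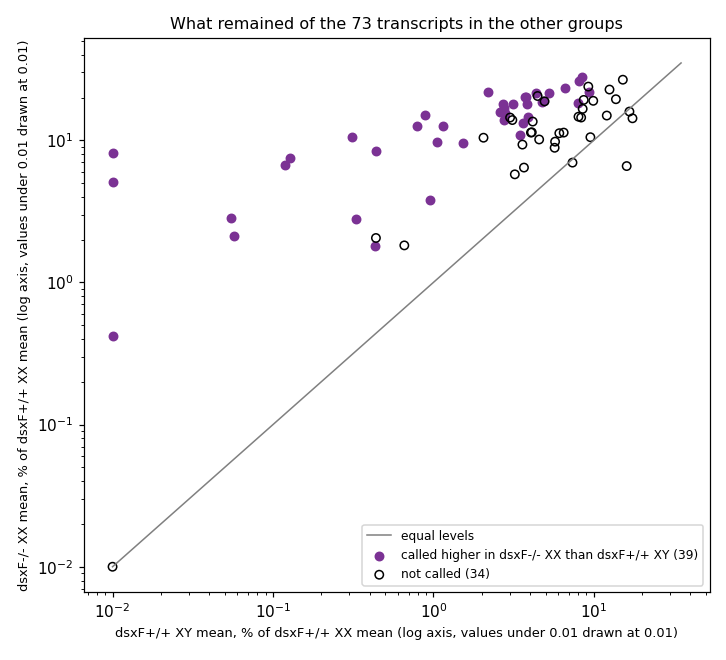
Mean level in dsxF-/- XX (vertical axis) against that in dsxF+/+ XY ears (horizontal axis), each as % of the dsxF+/+ XX mean on log axes, with values under 0.01% drawn at 0.01%. Filled points are the 39 transcripts called higher in dsxF-/- XX than in dsxF+/+ XY, open points the other 34, and 68 of the 73 have a fitted change above 0.

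Individual libraries moved with these values. The lowest dsxF+/+ XY library was replicate 2 for 46 of the 73 transcripts, where it was replicate 2 for 51.3% of all tested transcripts. Without it the median log2 change of the 73 was 1.52. In 8 of the 73, dsxF-/- XX replicate 3 was under 0.5 times the lower of replicates 1 and 2, where this held for 2.67% of all tested transcripts. Besides the 3 given above these were AGAP007287-RA, AGAP009342-RA, AGAP004890-RA, AGAP008219-RA and AGAP005751-RA, a set picked after the values were seen. AGAP009342-RA had 10.7, 26.0 and 4.80 CPM in dsxF-/- XX, 1.35, 0.612 and 0.218 CPM in dsxF+/+ XY and 191, 122 and 181 CPM in dsxF+/+ XX ears. The other 65 had no such gap, and what set replicate 3 apart for the 8 was not tested.

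The number chosen depended on where the rule was set and on which libraries entered it. Just inside the threshold of 3 lay AGAP000107.R195 and AGAP005496-RA (both 3.06), AGAP002588-RA (3.015) and AGAP029770-RA (3.007). Just outside lay AGAP010530-RA (2.997), AGAP007037-RA (2.994), AGAP029784-RA (2.988) and AGAP008059-RB (2.986). For 7 of these 8 the highest capped library was dsxF-/- XX replicate 2, and for AGAP000107.R195 it was replicate 3. Against the dsxF+/+ XY libraries alone the rule took 676 transcripts, of which 603 did not meet it against dsxF-/- XX. Against the dsxF-/- XX libraries alone it took 78, of which 5 did not meet it against dsxF+/+ XY. The counts of 676 and 78 restate the values that the rule used and share the same dsxF+/+ XX libraries, so nothing further is read from them. The dsxF-/- XX side also rested on replicate 2, without which the full rule took 173 transcripts in place of 73.

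Each library in turn was left out of the rule and then read for the transcripts that the other 8 chose. The values it was set against were those used in that choice, and no share over all transcripts was computed. The values that follow are therefore a description and no test of the set. Without dsxF-/- XX replicate 1, 2 or 3 the rule took 81, 173 and 87 transcripts, and in the library left out every one of them was below its lowest dsxF+/+ XX level. Their median in that library was 12.7%, 25.6% and 14.2% of the dsxF+/+ XX mean. Those that also met the rule in the library left out are, by construction, the 73 of the full rule. They made up 90.1%, 42.2% and 83.9% of these sets, which restates the set sizes and is no check. Without dsxF+/+ XY replicate 1, 2 or 3 the rule took 74, 73 and 74, with medians of 4.77%, 1.57% and 3.89% in the library left out. The same 73 were 98.6%, 100% and 98.6% of these sets. Without dsxF+/+ XX replicate 1, 2 or 3 it took 86, 131 and 93, of which 84, 130 and 92 were above their highest capped level in the library left out. The same 73 were 84.9%, 55.7% and 78.5% of these sets. The size of the set thus turned mostly on dsxF-/- XX replicate 2 and dsxF+/+ XX replicate 2.

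Most of the 71 genes, 55, have 1 transcript in the table. The other 16 have several, and in 2 of these (AGAP005166 and AGAP010147) a pair of transcripts was chosen. The level of a transcript in such a gene is an estimate, because reads from shared exons are divided among the isoforms. When transcripts were summed to genes before the rule was applied, 59 of the 71 genes met it, all 12 that did not had more than 1 transcript, and no other gene entered. The share of the gene's counts that went to the chosen transcript was higher in every dsxF+/+ XX library than in all 6 others for 7 of 18 transcripts.

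In 4 of these genes, named after their values were seen, the chosen isoform was low while another isoform of the gene was present in every library. AGAP001200-RA rounded to 0 counts in all dsxF-/- XX and dsxF+/+ XY libraries and took 75.5%, 28.2% and 45.7% of the counts of its gene in dsxF+/+ XX libraries. With reads divided between isoforms, a count of 0 for AGAP001200-RA sets no lower limit on its fold. Its partner AGAP001200-RB had 36.6, 44.3 and 40.7 CPM in dsxF-/- XX, 33.7, 26.8 and 41.6 CPM in dsxF+/+ XY and 12.9, 38.8 and 63.6 CPM in dsxF+/+ XX ears. The 3 groups overlapped for the partner. Both isoforms together had 36.6, 44.3 and 40.7 CPM in dsxF-/- XX and 33.7, 26.8 and 41.6 CPM in dsxF+/+ XY ears. In dsxF+/+ XX ears they had 52.5, 54.0 and 117 CPM, and the gene did not meet the rule when summed. AGAP002564-RA took 4.31%, 5.54% and 5.82% of its gene in dsxF-/- XX, 1.61%, 1.62% and 1.57% in dsxF+/+ XY and 33.1%, 33.4% and 38.5% in dsxF+/+ XX libraries.

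Another isoform of that gene, AGAP002564-RD, averaged 583 ± 12.7 CPM in dsxF-/- XX, 616 ± 104 CPM in dsxF+/+ XY and 535 ± 49.4 CPM in dsxF+/+ XX ears (SD, n = 3 each). Its log2 change was 0.01 ± 0.17 in dsxF-/- XX over dsxF+/+ XX (edgeR adjusted p = 0.978, and -0.06 without dsxF+/+ XX replicate 2) and 0.21 ± 0.17 in dsxF+/+ XY over dsxF+/+ XX (adjusted p = 0.394), neither called. AGAP005175-RB took 14.4%, 16.2% and 15.1% of its gene in dsxF-/- XX, 13.1%, 2.84% and 13.5% in dsxF+/+ XY and 49.1%, 57.6% and 62.1% in dsxF+/+ XX libraries, while AGAP005175-RA averaged 358 ± 20.7 CPM in dsxF-/- XX, 328 ± 20.9 CPM in dsxF+/+ XY and 331 ± 121 CPM in dsxF+/+ XX ears. AGAP004890-RA took 13.2%, 11.1% and 2.70% of its gene in dsxF-/- XX, 6.35%, 6.01% and 5.57% in dsxF+/+ XY and 39.1%, 40.5% and 53.3% in dsxF+/+ XX libraries. Its partner AGAP004890-RB is listed under kinase activity and phosphorylation in the annotation used by the study. The partner averaged 219.8 ± 44.0 CPM in dsxF-/- XX, 257 ± 25.7 CPM in dsxF+/+ XY and 151 ± 26.5 CPM in dsxF+/+ XX ears. In log2 the partner was 0.80 ± 0.21 higher in dsxF+/+ XY relative to dsxF+/+ XX ears (edgeR adjusted p = 0.0171). Of all tested transcripts, 11.7% were called higher in that comparison. The chosen isoform was lower there, which the rule fixed.

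**Figure D5:**
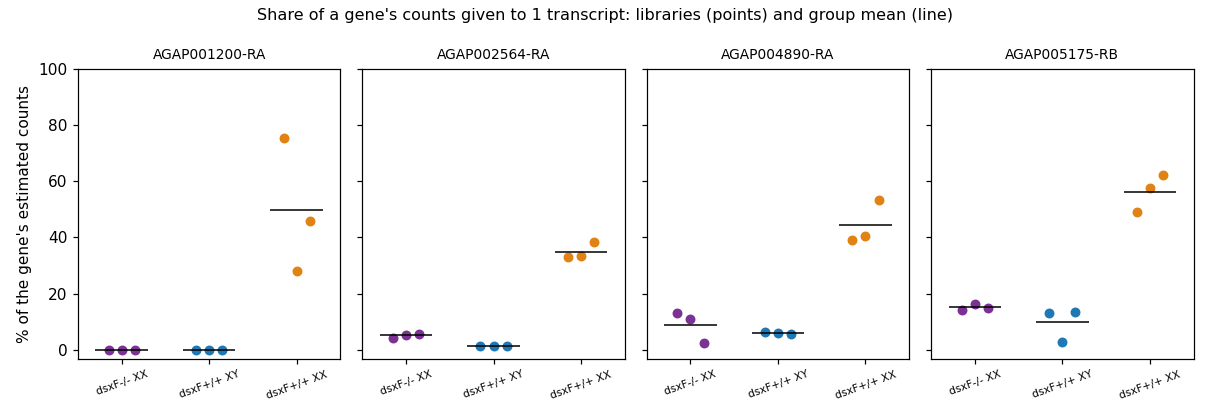
Share of a gene's estimated counts (%) given to AGAP001200-RA, AGAP002564-RA, AGAP004890-RA and AGAP005175-RB in dsxF-/- XX, dsxF+/+ XY and dsxF+/+ XX ears, with a point for each library and a line at the group mean. In each panel the 3 dsxF+/+ XX libraries lie above the other 6. This came with the rule and with picking these transcripts after their values were seen.

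In other genes further isoforms were lower too. The 71 genes have 38 transcripts that were not chosen, of which 33, from 15 genes, were abundant enough to test. They were not picked by the rule, though they share reads with those that were. Of the 33, 15 (45.5%) were called lower in dsxF-/- XX relative to dsxF+/+ XX, where 6.87% of all tested were, and 20 (60.6%) were called lower in dsxF+/+ XY relative to dsxF+/+ XX, where 18.1% were. Isoforms of 1 gene share reads and are not separate items: of the 15 calls, 5 belonged to AGAP010147, 4 to AGAP013481 and 2 to AGAP012305, and of the 20, 5, 5 and 2 did. By gene, 7 of 15 had at least 1 such isoform in dsxF-/- XX and 10 of 15 in dsxF+/+ XY ears. No share by gene over all tested genes was computed, and a gene with several tested isoforms has more chances of a call. These counts by gene therefore have no background to be read against. The count of 15 fell to 4, 6 and 7 without dsxF-/- XX replicate 1, 2 or 3, and to 8 and 6 without dsxF+/+ XX replicate 1 or 3. AGAP012305-RC, the one with the highest CPM, had 592, 754 and 1069 CPM in dsxF-/- XX, 394, 156 and 439.9 CPM in dsxF+/+ XY and 3784, 2093 and 2224 CPM in dsxF+/+ XX ears. Its log2 change was -1.86 ± 0.39 in dsxF-/- XX (adjusted p = 0.0177) and -3.03 ± 0.41 in dsxF+/+ XY (adjusted p = 5.9e-04), both over dsxF+/+ XX by edgeR, and the first call was lost without dsxF-/- XX replicate 1 or 2 or dsxF+/+ XX replicate 1 or 3.

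AGAP010147-RJ had 579.7, 639 and 1035 CPM in dsxF-/- XX, 623, 244 and 579 CPM in dsxF+/+ XY and 2195, 1889 and 1719 CPM in dsxF+/+ XX ears. It changed by -1.48 ± 0.34 in dsxF-/- XX (adjusted p = 0.0240) and -2.01 ± 0.34 in dsxF+/+ XY (adjusted p = 0.00214) over dsxF+/+ XX. The first call was lost without the same 4 libraries as that of AGAP012305-RC. The chosen isoforms of this gene, AGAP010147-RC and AGAP010147-RI, took means of 3.23% and 2.58% of its counts in dsxF+/+ XX ears.

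AGAP013481-RB had 167, 212 and 278 CPM in dsxF-/- XX, 137, 40.1 and 138 CPM in dsxF+/+ XY and 1478, 483 and 505 CPM in dsxF+/+ XX ears. It changed by -2.00 ± 0.52 in dsxF-/- XX (adjusted p = 0.0401) and -2.95 ± 0.54 in dsxF+/+ XY (adjusted p = 0.00334) over dsxF+/+ XX. AGAP013481-RD changed by -1.85 ± 0.48 in dsxF-/- XX (adjusted p = 0.0377) and -2.94 ± 0.50 in dsxF+/+ XY (adjusted p = 0.00208). For both, the dsxF-/- XX call was lost when any library other than dsxF+/+ XY replicate 2 or dsxF+/+ XX replicate 2 was left out. AGAP010147-RG changed by -1.16 ± 0.31 in dsxF-/- XX (adjusted p = 0.0431) and -1.27 ± 0.31 in dsxF+/+ XY (adjusted p = 0.0139), and its dsxF-/- XX call was lost when any library other than dsxF+/+ XY replicate 2 or 3 was left out.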

How the data were processed

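RNA from pooled pedicels was amplified with a full-length cDNA kit that does not mark strand, so overlapping antisense genes cannot be told apart. The authors quantified reads with kallisto against the AgamP4.12 transcriptome and deposited estimated counts per transcript for 9 libraries. All count columns were matched to samples by the column names in the labels, with 0 columns left over. CPM were column counts over column totals. For testing, the deposited estimated counts were rounded to whole numbers, filtered with edgeR's default filter (12379 transcripts kept, all 73 chosen ones among them, and 3687 left out), scaled by TMM and fitted with edgeR 4.0.16 (quasi-likelihood, R 4.3.3) across all 3 groups. Calls had an adjusted p below 0.05 over all tested transcripts. The common coefficient of biological variation was 36%. The model was also run on simulated data with 200 changed transcripts and the same spread for all transcripts. Spread in the real data differs by transcript, so nothing is read from that run.

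Chosen transcripts and lists were picked with earlier results of these data known. Transcripts were named by these rules: the 15 with the highest lowest dsxF+/+ XX CPM, the 8 called in dsxF-/- XX over dsxF+/+ XY with the smallest p (none was called lower), the 4 on each side of the threshold, and the 6 other isoforms with the highest mean CPM. Others are marked as named after their values were seen. Collections were separate biological repeats per the study's methods. Alternatives were DESeq2 1.42.0, its size factors, other filters, only the groups compared, blocks, leaving out each library, and other settings of the rule. Lists by gene name, neighbouring genes and promoter motifs were planned and not run, since the gene table used here matched 0 of the identifiers. Comparisons between pairs of groups share libraries.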

Additional observations from a re-analysis of the deposited data

How the results depend on the processing

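The count of chosen transcripts was 254 with a fold of 2 and 15 with a fold of 5 in place of 3, and lay between 73 and 173 with each library left out in turn. Leaving out a library only loosens the rule, so that count could not fall below 73. Other settings of the rule gave between 59 and 89. The 39 transcripts higher in dsxF-/- XX than in dsxF+/+ XY ears were 49 by DESeq2, 21 with at least 10 counts required in every library and 24 when only these groups were fitted. The filter on 10 counts removed transcripts with few male counts, AGAP009877-RA and AGAP010548-RA among them. The 28 named changes still tested under it kept their call or lack of one. With each library left out in turn the count of 39 became between 21 and 39, while the count of lower calls was 0 under every alternative run. The median log2 change of the 73 lay between 1.52 and 2.08, and the transcripts with groups that did not overlap were between 58 and 60, a check added after seeing the data. Leaving out a library can only keep or raise the count without overlap, so its range is no check on it. The other isoforms lower in dsxF-/- XX relative to dsxF+/+ XX ears, 15, were between 4 and 17 with each library left out, and those lower in dsxF+/+ XY relative to dsxF+/+ XX ears, 20, were between 15 and 21 under all alternatives. No called change turned its sign. Of changes not called, those of AGAP002317-RA (-0.07 without dsxF-/- XX replicate 3), AGAP011514-RA (-0.02 without dsxF+/+ XY replicate 2), AGAP011515-RA (0.09 without dsxF+/+ XY replicate 3) and AGAP002564-RD (-0.06 without dsxF+/+ XX replicate 2 and -0.02 with at least 10 counts in every library) did.

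With the replicate number as a block, 34 of the 73 were called higher in dsxF-/- XX than in dsxF+/+ XY ears, with 12 and 21 of the other isoforms lower in dsxF-/- XX and in dsxF+/+ XY than in dsxF+/+ XX ears. Same-numbered libraries did not all deviate together, and whether a number marks a shared batch was not tested. Correlations across transcripts were -0.188, -0.0625 and 0.0179 between dsxF-/- XX and dsxF+/+ XY and -0.279, -0.146 and 0.0936 between dsxF-/- XX and dsxF+/+ XX. Between dsxF+/+ XY and dsxF+/+ XX they were 0.174, 0.452 and -0.0198. The value of 0.452 belonged to replicate 2 of dsxF+/+ XY and of dsxF+/+ XX, which the order of library numbers also pairs. Paired by the order of the library numbers, dsxF+/+ XY and dsxF+/+ XX libraries correlated at 0.213, 0.233 and 0.452, dsxF-/- XX and dsxF+/+ XY at 0.217, -0.152 and -0.0625. A block by that order gave 34, 13 and 20. Of transcripts named, the calls of AGAP007453-RA and AGAP001124-RA over dsxF+/+ XY, and of AGAP013481-RB (-1.81 in both) and AGAP010147-RG (-1.18 and -1.17) over dsxF+/+ XX, all in dsxF-/- XX, were lost under either block, and that of AGAP005208-RA over dsxF+/+ XY under the second. With 3 libraries a group, no change under 2-fold was called among the 73.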

Other observations

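Some of the 71 genes have identifiers that lie close in number. With steps of at most 3, 12 genes formed 5 runs, a grouping made after the values were seen, and whether close numbers mean close positions was not tested. The longest run was AGAP007453, AGAP007454, AGAP007455 and AGAP007456. AGAP007453-RA had 1.06, 8.98 and 2.01 CPM in dsxF-/- XX, 0, 0.272 and 0.0544 CPM in dsxF+/+ XY and 201, 98.7 and 268 CPM in dsxF+/+ XX ears. AGAP007455-RA had 0.705, 2.46 and 1.04 CPM in dsxF-/- XX, 0.0644, 0.272 and 0.163 CPM in dsxF+/+ XY and 49.3, 40.7 and 61.1 CPM in dsxF+/+ XX ears. AGAP007456-RA had 1.20, 4.06 and 1.82 CPM in dsxF-/- XX, 0.708, 0.748 and 0.0544 CPM in dsxF+/+ XY and 111, 92.2 and 141 CPM in dsxF+/+ XX ears. With AGAP007454-RA, the 4 kept between 2.05% and 2.83% of the dsxF+/+ XX mean in dsxF-/- XX ears, and dsxF-/- XX replicate 2 was the highest of its group in each. AGAP009877 and AGAP009879 formed a pair, of which the first kept 0.42% and the second 12.6% of the dsxF+/+ XX mean in dsxF-/- XX ears.

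Transcripts of the genes with the next identifier numbers, 115 tested from 93 genes, were called lower in dsxF-/- XX relative to dsxF+/+ XX for 19 (16.5%, where 6.87% of all tested were) and lower in dsxF+/+ XY relative to dsxF+/+ XX for 41 (35.7%, where 18.1% of all tested were).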
